A study of Drosophila melanogaster with 44 samples.

Results

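The proteasome genes described here are the Drosophila melanogaster genes whose symbols begin with Prosalpha or Prosbeta, or with Rpn or Rpt and a digit, together with the assembly chaperone gene PSMG1. A gene entered with 1 probe set, and 41 of 11884 genes on the array met the rule. Of these 41, 27 had a mean log2 value of at least 6 over the 44 arrays and were tested: PSMG1, 6 genes of the core alpha ring, 6 of the core beta ring, 7 of the base and 7 of the lid. The other 14 are testis or second-copy paralogs, and all of them lay under that level. Prosalpha1 shares a probe set with Prosalpha1R, and Prosbeta1, Rpn9, Rpn10, Rpt1, Rpt6 and Rpt6R have no probe set of their own in the annotation used, so they were not analysed here as single genes.

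The study measured RNA of whole adult females in which chromosome segments were reduced to 1 copy by deletions. Each sample held 15 females aged 0 to 24 h, raised at 25 °C, and was hybridised to 1 Affymetrix array. The doubles were 19 pairwise combinations with 1 array each. Of these, Df(2L)ED4559/Df(2L)ED3, Df(2R)ED1770/Df(2R)ED1612, Df(3R)ED5071/Df(3R)ED10953 and Df(3R)ED7665/Df(3R)ED10953 had both deletions on the same arm and are labelled as on opposite homologs. For doubles that join 2L with 2R, arms of the same chromosome, the labels do not say whether the deletions share a homolog. The singles were 19 arrays. On arm 3R they were Df(3R)ED5071/+ and Df(3R)ED7665/+ with 2 arrays each and Df(3R)ED10953/+ with 3. On arm 2R they were Df(2R)ED1770/+ and Df(2R)ED1612/+, and on arm 2L Df(2L)ED3/+ and Df(2L)ED4559/+, with 3 arrays for each of these. The wild type had 6 arrays, and its strain is not named in the sources used here. Deletions are called below by their ED names.

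The proteasome is the protease that degrades proteins tagged with ubiquitin. Its barrel-shaped core is built of alpha rings, which gate the entrance, and beta rings, some of whose subunits cut the substrate. A regulatory particle caps the core: its base holds the Rpt ATPases, which unfold the substrate and thread it into the core, and its lid holds the Rpn11 enzyme, which removes the ubiquitin chain. PSMG1 is a chaperone that helps the alpha ring to assemble, and in flies the transcription factor cnc, of the Nrf family, raises proteasome gene expression when the protease is impaired.

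None of the 27 tested genes lies inside a deleted interval as mapped from runs of neighbouring genes that lie lower in carriers, so each of them was present in 2 copies in every array. They are spread over the genome, with 9 on arm 3R, 7 on 2R, 4 on 2L, 4 on 3L and 3 on X. PSMG1 and Rpn5 are neighbours on 3R.

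The medians of the arrays ran from 5.50 to 5.73 (log2). The ovary differed between arrays: wild-type replicates 4 and 5 stood 3.29 and 2.81 above the wild-type mean in eggshell genes and 1.22 and 0.87 above it in germline genes. In bulk samples, fewer cells of a type and less RNA per cell cannot be told apart. The labels also number the arrays, with 1 to 6 for the wild type and 7 or higher for all carriers of a deletion, so the numbering of the arrays and the presence of a deletion cannot be told apart where wild type is used. Male tissue was near absent: 2 of 24 testis markers and 1 of 12 accessory gland markers had a mean of at least 6, led by bol at 7.55 and Acp95EF at 6.45.

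The proteasome genes lay lower, as a group, in deletion flies than in wild type. The median over the 27 genes of an array's log2 value minus the wild-type mean ran from -0.66 to -0.06 in the 19 doubles, with a median of -0.29. It ran from -0.52 to 0.04 in the 19 singles, with a median of -0.21, and from -0.22 to 0.16 in the 6 wild-type arrays. All 19 doubles and 17 of 19 singles were below 0, and 14 doubles and 9 singles were below the lowest wild-type array. The groups therefore overlapped. In 15 doubles and 12 singles every one of the 27 genes was below its wild-type mean, and this was also so in wild-type replicate 5, whereas in replicate 1 none was. The share of all genes tested that lay below their wild-type mean had a median of 49.3% in doubles, from 39.3% to 82.0%. In singles its median was 50.3%, from 41.1% to 60.4%, and in wild type the share ran from 42.5% to 58.2%.

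Markers of muscle and eggshell were read in the same arrays. The mean of the 14 muscle genes relative to the wild-type mean ran from -0.03 to 0.42 in doubles, from -0.07 to 0.36 in singles and from -0.69 to 0.29 in wild type. In the fits, 13 of the 14 had a difference above 0 in doubles, with a median of 0.09 and 1 called, up, which rose (0.59 ± 0.18, SE; limma, adjusted p = 0.0432), and all 14 were above 0 in singles, with a median of 0.12 and none called. Of all 7476 genes tested, 55.4% were below 0 in doubles and 252 rose, and 51.4% were below 0 in singles and 71 rose. The shares called in either direction were 6.23% in doubles and 1.57% in singles. The mean of the eggshell genes ran from -2.88 to 2.54 in doubles, from -2.96 to 1.32 in singles and from -2.53 to 3.29 in wild type. This list of 12 also holds the yolk protein genes Yp1, Yp2 and Yp3. None of 12 eggshell genes was called, and the largest differences were those of the chorion gene Cp15 in singles, at -3.31 ± 1.35 (SE; limma, adjusted p = 0.167), and Cp36 in doubles, at -2.22 ± 1.11 (SE; adjusted p = 0.216). The part of these tissues in the proteasome values was not tested.

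**Figure D1:**
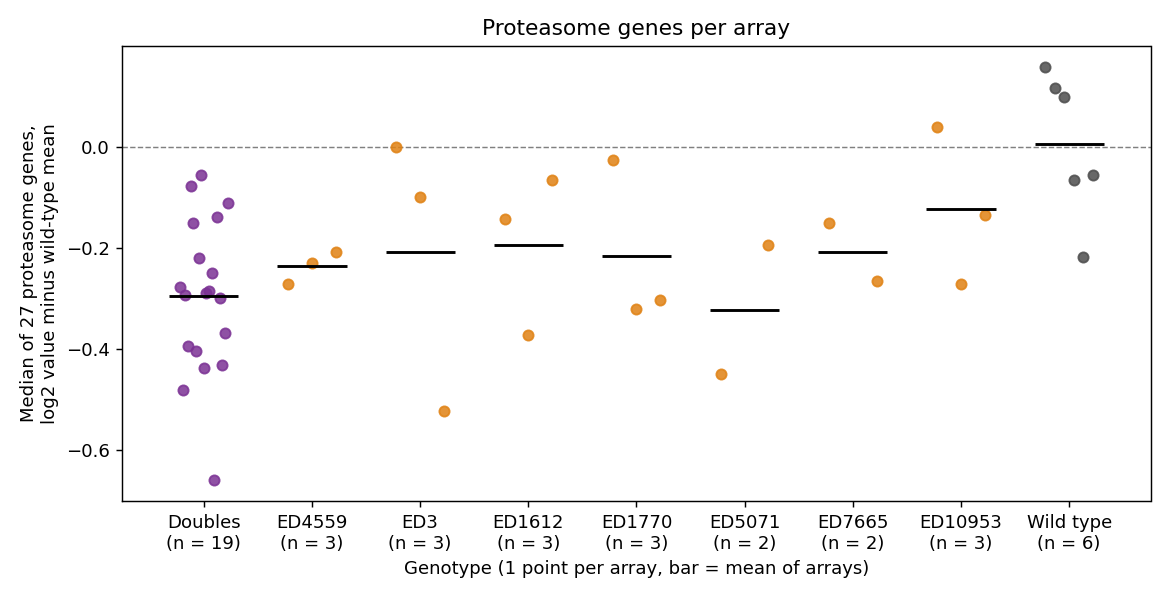
Median over the 27 proteasome genes of the log2 value minus the wild-type mean (vertical axis), 1 point per array, for the doubles, each single deletion and wild type (horizontal axis); bars are means of arrays. The doubles lie between -0.66 and -0.06, the singles between -0.52 and 0.04 and the wild type between -0.22 and 0.16.

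The values are given here by array number too, which divides the carriers and leaves all wild-type arrays on 1 side. Among doubles the median over the 27 genes averaged -0.26 ± 0.15 (SD, n = 9) in arrays numbered up to 26 and -0.33 ± 0.16 (SD, n = 10) in those from 27. Among singles it averaged -0.17 ± 0.14 (SD, n = 10) up to 26 and -0.26 ± 0.15 (SD, n = 9) from 27, against 0.01 ± 0.14 (SD, n = 6) in wild type. The germline genes moved with the same split in the singles, at -0.33 ± 0.31 up to 26 and 0.55 ± 0.22 from 27 relative to the wild-type mean, and their part in the proteasome values was not tested. Among these germline genes, bam lies inside the ED10953 interval and gcl inside the ED1770 interval.

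PSMG1, the chaperone of the alpha ring, had the lowest adjusted p of the 27 genes in both comparisons with wild type. Its log2 value had a lowest, median and highest array of 9.21, 9.53 and 9.86 in doubles, of 9.31, 9.60 and 9.93 in singles, and of 9.79, 9.98 and 10.10 in wild type. Every double and every single was below the wild-type mean, and 18 of 19 in each set were below the lowest wild-type array. The exceptions were the double ED1770 with ED3 at 9.86 and ED10953 replicate 1 at 9.93. Group means were 9.52 ± 0.16 in doubles and 9.60 ± 0.14 in singles (SD, n = 19 each), and 9.96 ± 0.11 in wild type (SD, n = 6).

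In limma, PSMG1 fell in doubles by 0.44 ± 0.07 (log2, SE; adjusted p = 0.000237), to 73.9% of wild type. In singles it fell by 0.37 ± 0.06 (SE; limma, adjusted p = 0.0101), to 77.5%. The fit weights the 7 deletions equally, so this differs slightly from the difference of the group means. Both comparisons use the same 6 wild-type arrays. The call in singles was lost with the array number as a block (-0.35, limma, adjusted p = 0.0596), and both calls were lost when only arrays numbered up to 26 were used (adjusted p = 0.0657 in doubles and 0.205 in singles).

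PSMG1 in the single deletions had log2 values of 9.31 and 9.54 in ED5071, and of 9.60 and 9.61 in ED7665. In ED10953 it stood at 9.93, 9.64 and 9.78, in ED1770 at 9.61, 9.51 and 9.58, and in ED1612 at 9.68, 9.39 and 9.63. In ED3 it stood at 9.71, 9.67 and 9.45, and in ED4559 at 9.56, 9.55 and 9.54. The wild-type replicates 1 to 6 gave 10.10, 10.02, 9.95, 10.02, 9.79 and 9.86. ED5071 was the lowest deletion and ED10953 the highest, and only ED10953 had an array within the wild-type range.

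**Figure D2:**
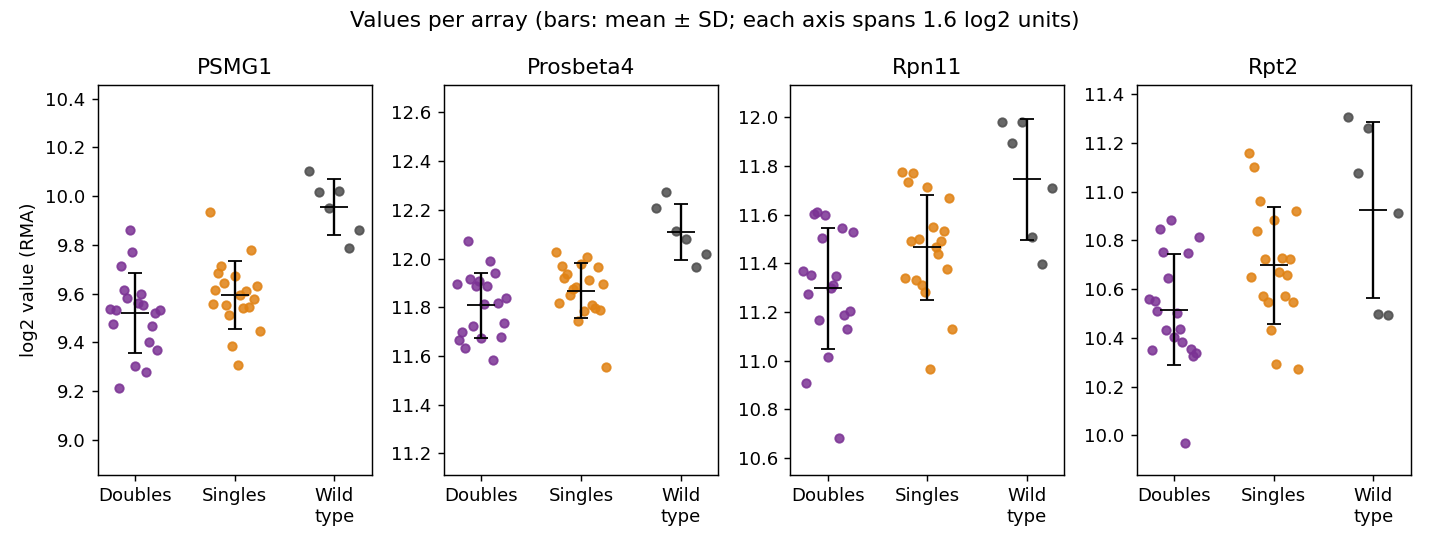
Log2 value (RMA) of PSMG1, Prosbeta4, Rpn11 and Rpt2 in each array of the doubles (n = 19), singles (n = 19) and wild type (n = 6); bars give mean ± SD, and each axis spans the same number of log2 units. PSMG1 and Prosbeta4 have a narrow wild-type spread, whereas the wild-type arrays of Rpt2 run from 10.49 to 11.31 and overlap most singles.

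Doubles were compared with wild type over all 44 arrays, with the 19 unreplicated double genotypes as 1 group. Of the 27 proteasome genes 20 fell and none rose in limma at an adjusted p under 0.05, where 6.23% of all 7476 genes tested were called and 2.86% fell. All 27 differences were below 0, as were 55.4% of those of all genes, and all 27 had an unadjusted p under 0.05, where 12.6% of all genes were lower at that p. The median difference of the 27 genes was -0.30, and that of all genes tested was -0.03. By role, 6 of 6 beta ring genes fell, 5 of 6 alpha ring genes, 5 of 7 base genes, 3 of 7 lid genes and PSMG1. The 20 became 4 with the array number as a block (1.4% of all genes called), 8 with each array centred on its median (6.15%), and 0 with only arrays numbered up to 26 (0.401%), where 23 of the 27 had an unadjusted p under 0.05. They became 11, 9 and 11 without wild-type replicates 1, 2 and 3, where 6.34%, 3.26% and 5.43% of all genes were called. All 27 differences were below 0 in each of these fits, with a median of -0.27 under the block, centring and the restriction to arrays up to 26 alike.

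In the alpha ring, Prosalpha6 had a lowest, median and highest log2 value of 10.37, 10.73 and 11.17 in doubles, of 10.35, 10.85 and 11.21 in singles and of 11.02, 11.16 and 11.30 in wild type. In doubles 18 of 19 arrays were below the lowest wild-type array, and in singles 14 of 19. It fell in doubles by 0.43 ± 0.09 (SE; limma, adjusted p = 0.00524), and its difference in singles was -0.33 ± 0.09 (SE; limma, adjusted p = 0.0706), which did not pass. Prosalpha4 averaged 10.56 ± 0.14 in doubles and 10.64 ± 0.15 in singles (SD, n = 19 each), against 10.88 ± 0.15 in wild type (SD, n = 6). It fell in doubles by 0.32 ± 0.07 (SE; adjusted p = 0.00979), and Prosalpha3 fell by 0.31 ± 0.07 (SE; adjusted p = 0.0134). Prosalpha2 fell by 0.28 ± 0.07 (SE; adjusted p = 0.0168), and Prosalpha5 by 0.26 ± 0.07 (SE; adjusted p = 0.0275). Prosalpha7 had a difference of -0.21 ± 0.07 (SE; adjusted p = 0.0565) and did not pass. The probe set shared by Prosalpha1 and Prosalpha1R, which was not tested, averaged 12.14 ± 0.12 in doubles and 12.18 ± 0.11 in singles, against 12.45 ± 0.12 in wild type.

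The beta ring holds the cutting subunits. Prosbeta4, a subunit without catalytic activity, had a lowest, median and highest log2 value of 11.59, 11.82 and 12.07 in doubles, of 11.55, 11.88 and 12.03 in singles and of 11.97, 12.10 and 12.27 in wild type. Every double lay below the wild-type mean and 17 of 19 lay below the lowest wild-type array, as did 15 of 19 singles. It fell in doubles by 0.30 ± 0.06 (SE; limma, adjusted p = 0.00511), to 81.1% of wild type, and its difference in singles was -0.24 ± 0.06 (SE; adjusted p = 0.0525). Prosbeta3 fell in doubles by 0.28 ± 0.06 (SE; adjusted p = 0.00617), with -0.23 ± 0.06 in singles (SE; adjusted p = 0.0554). Prosbeta5, the chymotrypsin-like catalytic subunit, averaged 11.87 ± 0.13 in doubles and 11.94 ± 0.11 in singles, against 12.11 ± 0.10 in wild type (SD, n = 19, 19 and 6). It fell in doubles to 84.5% of wild type (limma, adjusted p = 0.0157). Prosbeta2, the trypsin-like catalytic subunit, averaged 11.64 ± 0.12 in doubles and 11.71 ± 0.13 in singles, against 11.86 ± 0.14 in wild type, and fell in doubles to 86.0% (limma, adjusted p = 0.0348). Prosbeta6 and Prosbeta7 fell in doubles to 84.0% and 87.0% of wild type (limma, adjusted p = 0.0186 and 0.0415).

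**Figure D3:**
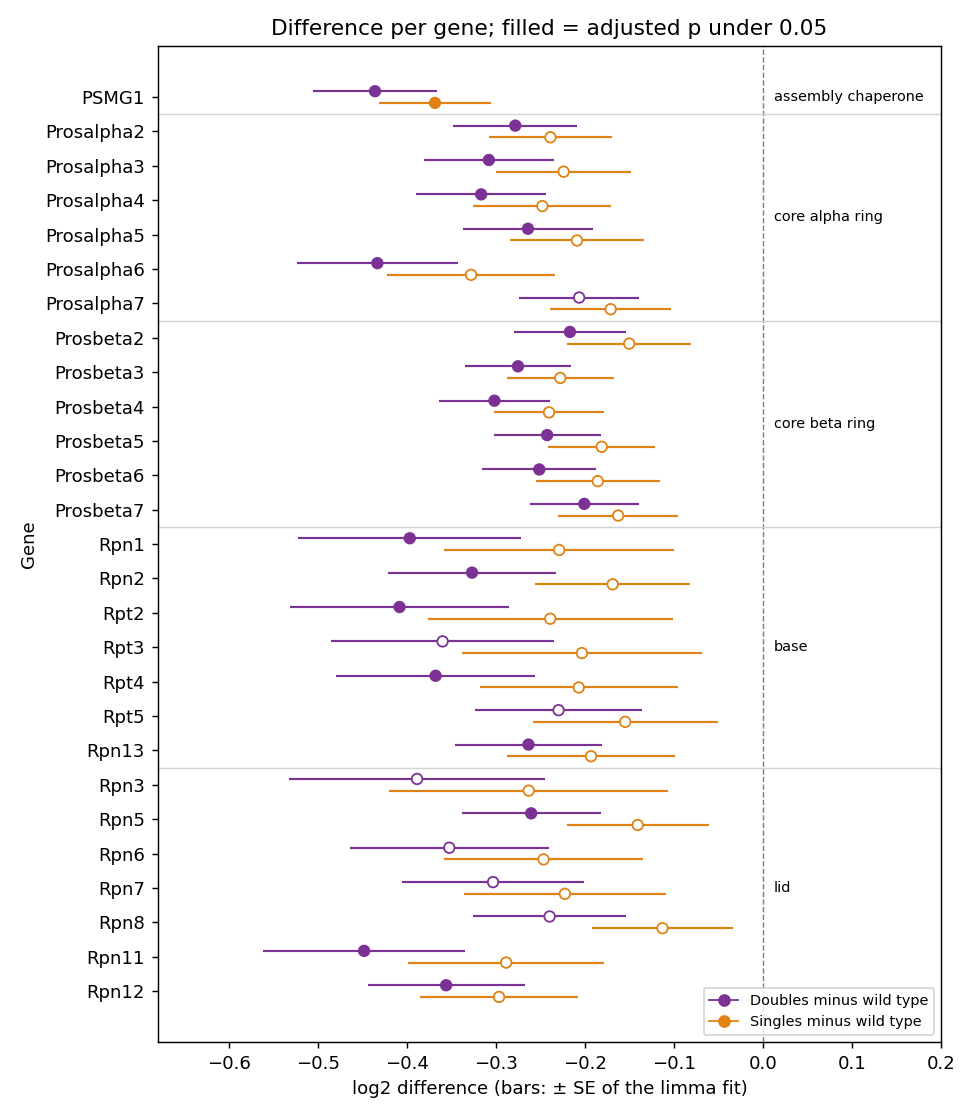
Difference in log2 value from wild type (horizontal axis) for each of the 27 proteasome genes (vertical axis), grouped by role, in doubles and in singles; bars are ± SE of the limma fit and filled points have an adjusted p under 0.05. All points lie below 0, from -0.45 to -0.20 in doubles and from -0.37 to -0.11 in singles; 20 are filled in doubles and 1, PSMG1, in singles.

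In the base, Rpt2, an ATPase, had a lowest, median and highest log2 value of 9.97, 10.50 and 10.89 in doubles, of 10.27, 10.67 and 11.16 in singles and of 10.49, 10.99 and 11.31 in wild type. Its wild-type arrays were widely spread, with replicates 4 and 5 at 10.50 and 10.49 and replicates 1 to 3 at 11.31, 11.08 and 11.26, and only 9 of 19 doubles lay below the lowest of them. Rpt2 fell in doubles by 0.41 ± 0.12 (SE; limma, adjusted p = 0.0400), to 75.4% of wild type, with -0.24 ± 0.14 in singles (SE; adjusted p = 0.321). Rpt4, another ATPase, fell by 0.37 ± 0.11 in doubles (SE; adjusted p = 0.0415), and the scaffold subunits Rpn1 and Rpn2 fell by 0.40 ± 0.13 and 0.33 ± 0.09 (SE; adjusted p = 0.0486 and 0.0331). Rpn13, a ubiquitin receptor, fell by 0.26 ± 0.08 (SE; adjusted p = 0.0486). The ATPases Rpt3 and Rpt5 had differences of -0.36 ± 0.13 (SE; adjusted p = 0.0716) and -0.23 ± 0.09 (SE; adjusted p = 0.124), which did not pass. Without wild-type replicate 1, 2 or 3 the adjusted p of Rpt2, Rpt4, Rpn1 and Rpn2 lay between 0.0560 and 0.136.

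In the lid, Rpn11, the deubiquitinase, had a lowest, median and highest log2 value of 10.68, 11.31 and 11.61 in doubles, of 10.97, 11.49 and 11.78 in singles and of 11.40, 11.80 and 11.98 in wild type. Every double was below the wild-type mean, and 13 of 19 were below the lowest wild-type array. It fell in doubles by 0.45 ± 0.11 (SE; limma, adjusted p = 0.0180), to 73.3% of wild type, the largest difference among the 27 genes, and its difference in singles was -0.29 ± 0.11 (SE; adjusted p = 0.145). Rpn12 averaged 11.15 ± 0.19 in doubles and 11.22 ± 0.20 in singles, against 11.51 ± 0.11 in wild type, and 16 of 19 doubles lay below the lowest wild-type array. It fell in doubles by 0.36 ± 0.09 (SE; adjusted p = 0.0157), with -0.30 ± 0.09 in singles (SE; adjusted p = 0.0829). Rpn5, a scaffold subunit, fell by 0.26 ± 0.08 in doubles (SE; adjusted p = 0.0398). Rpn8, the partner of Rpn11, had a difference of -0.24 ± 0.09 (SE; adjusted p = 0.0795), and the scaffold subunits Rpn3, Rpn6 and Rpn7 had differences of -0.39 ± 0.14, -0.35 ± 0.11 and -0.30 ± 0.10 (SE; adjusted p = 0.0901, 0.0502 and 0.0643), none of which passed.

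The singles, taken as the mean of the 7 deletions, were compared with the same wild-type arrays. PSMG1 was the 1 gene of 27 that fell and none rose, where 1.57% of all genes tested were called and 0.615% fell. The differences of all 27 genes were below 0, as were 51.4% of those of all genes, and their median was -0.22 against -0.01 for all genes tested. At an unadjusted p under 0.05, 16 of the 27 were lower, against 9.32% of all genes. By role the median difference was -0.23 in the alpha ring, -0.18 in the beta ring, -0.20 in the base and -0.25 in the lid. The count of 1 became 12 with germline expression as a covariate (21.5% of all genes called), 5 without wild-type replicates 4 and 5, 4 without ED3 replicate 3, 3 without wild-type replicate 5, 3 without ED3 replicate 2 and 2 without ED3 replicate 1 or ED5071 replicate 2. The shares of all genes called in the fits with 1 array left out are not given here. Those counts are therefore not read as changes in the proteasome genes. None of the 27 had all its doubles, or all its singles, below the lowest wild-type array, which 0.12% and 0.0268% of all genes did. At least 18 of 19 doubles lay below the wild-type mean for 21 of the 27 genes, against 5.11% of all genes, and at least 18 of 19 singles did for 13 of the 27, against 6.21%.

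Genes of the base and lid had a wider spread between wild-type arrays than genes of the core, a difference that was not tested. The median SD over the 6 wild-type arrays was 0.12 for the core genes, 0.30 for the base and 0.24 for the lid, where the median over all genes tested was 0.29. The median of the core genes over the wild-type arrays spanned 0.29 on the log2 scale, and that of the base and lid spanned 0.63. Wild-type replicates 4 and 5, which carried the highest germline and eggshell values, stood at -0.24 and -0.34 for the base and lid, against 0.30, 0.12, 0.22 and -0.02 in replicates 1, 2, 3 and 6. For the core they stood at -0.04 and -0.16, against 0.13, 0.11, 0.06 and -0.07. The part of the ovary in these values was not tested. Without these 2 wild-type arrays 26 of the 27 genes fell in doubles, where 7.58% of all genes were called, and 5 in singles, where 3.36% were called, and the difference of Rpt2 in doubles was -0.62 (limma, adjusted p = 0.00409). Replicates 4 and 5 had the lowest medians over the 27 genes in wild type, at -0.07 and -0.22. The wild-type level of the group is thus higher without them, and the added calls are no separate support.

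**Figure D4:**
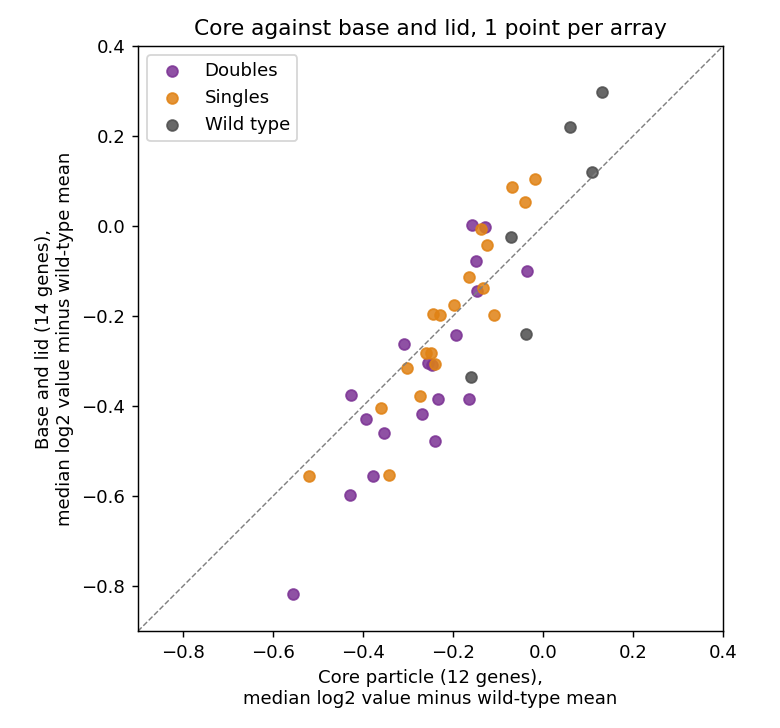
Median over the 14 base and lid genes (vertical axis) against the median over the 12 core genes (horizontal axis), both as log2 value minus the wild-type mean, 1 point per array; the dashed line marks equal values. Wild-type arrays span 0.63 on the vertical axis and 0.29 on the horizontal one, and the double ED5071 with ED3 is at the lower left.

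Doubles and singles were then set against each other, which asks whether a second segment at 1 copy adds to the first and needs no wild type. The single deletions were weighted to the mix of deletions that the doubles carry. None of the 27 genes and 0% of the 7476 genes tested passed in limma, and 5 of the 27 were lower at an unadjusted p under 0.05, against 2.84% of all genes. Those 5 were Rpn2, Rpn5, Rpn8, Rpn11 and Rpt4, all of the base or lid. All 27 differences were below 0, as were 60.2% of those of all genes, with a median of -0.08 for the 27 and -0.02 for all. The largest were -0.17 ± 0.09 for Rpn1, -0.17 ± 0.09 for Rpt2 and -0.16 ± 0.08 for Rpt4 (SE), and PSMG1 differed by -0.07 ± 0.05 (SE; limma, adjusted p = 0.9999 for all of these). By role the median difference was -0.16 in the base, -0.12 in the lid and -0.06 in each core ring. The count remained 0 without any 1 single array.

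No proteasome gene passed the test of a difference among the 7 single deletions. In this F test 0 of 27 genes passed in limma, where 2.29% of all genes tested were called. An unadjusted p under 0.05 was reached by 0 of the 27 and by 519 of all 7476 genes tested. The largest F were 1.66 for PSMG1, 0.91 for Rpn12, 0.76 for Rpn1, 0.64 for Rpn6 and 0.51 for Rpn5. The means of all 7 deletions were below wild type for each of the 27 genes, which held for 18% of all genes. ED5071 had the lowest mean for 22 of the 27 and ED10953 the highest for 21, but these rest on 2 and 3 arrays. In ED5071 the 2 arrays had medians over the 27 genes of -0.45 and -0.20, and in ED10953 the 3 arrays had 0.04, -0.27 and -0.13. Within ED3 the 3 arrays stood at 0.00, -0.10 and -0.52.

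Against wild type, the deletions taken 1 at a time gave 1 call over the 7 tests of 27 genes. PSMG1 fell in ED5071 by 0.53 (log2; limma, adjusted p = 0.0176), where 1.22% of all genes were called and 0.575% fell, and without the lower of the 2 ED5071 arrays the value was -0.41 (adjusted p = 0.687). The median difference of the 27 genes was -0.30 in ED5071, -0.20 in ED7665, -0.12 in ED10953, -0.20 in ED1770, -0.19 in ED1612, -0.20 in ED3 and -0.22 in ED4559. The shares of all genes that fell were 0.575% in ED5071, 0.294% in ED7665, 0.174% in ED10953, 0.482% in ED1770, 0.401% in ED1612, 0.107% in ED3 and 0.294% in ED4559. These 7 tests share their wild-type arrays.

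Among the doubles, the median over the 27 genes was lowest in ED5071 with ED3, at -0.66, and next in ED1612 with ED10953, at -0.48, ED5071 with ED4559, at -0.44, and ED7665 with ED1770, at -0.43. It was nearest to wild type in ED1612 with ED3, at -0.06, ED4559 with ED1612, at -0.08, and ED7665 with ED3, at -0.11. The 4 doubles with both deletions on the same arm stood at -0.15, -0.40, -0.29 and -0.30 for ED4559 with ED3, ED1770 with ED1612, ED5071 with ED10953 and ED7665 with ED10953. Each of these genotypes has 1 array and no replicate, so differences between single doubles were not tested. The 5 doubles with ED5071 ran from -0.66 to -0.25 and the 5 with ED1770 from -0.43 to -0.22, and all 27 genes were below their wild-type means in each of these arrays. The 6 doubles with ED3 ran from -0.66 to -0.06.

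**Figure D5:**
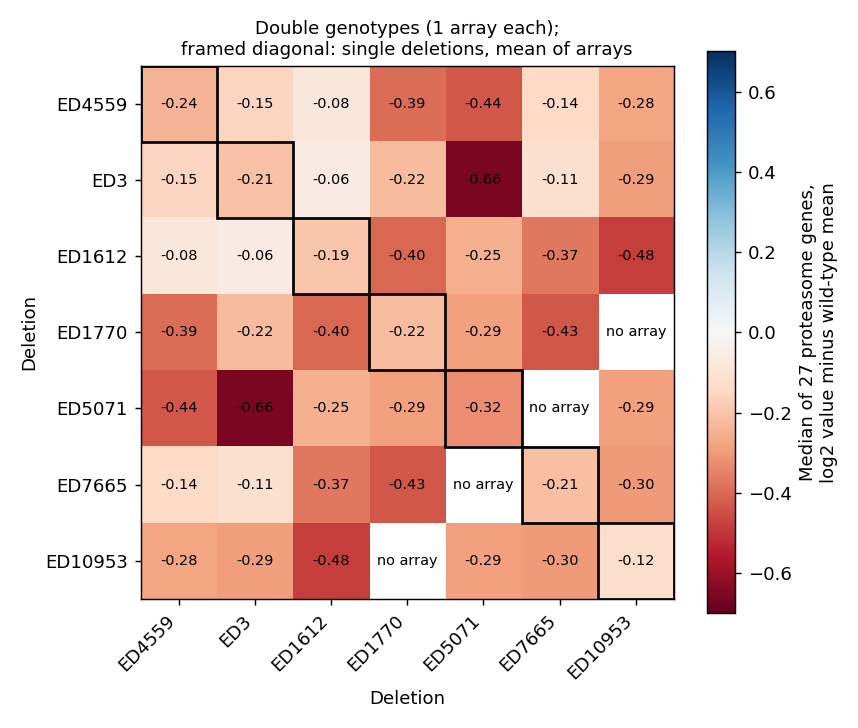
Median over the 27 proteasome genes of the log2 value minus the wild-type mean, by the 2 deletions of each double (rows and columns; 1 array each, shown on both sides of the diagonal); framed cells on the diagonal give the mean over arrays of each single deletion. Values run from -0.66 in ED5071 with ED3 to -0.06 in ED1612 with ED3, and the 2 combinations without an array are marked.

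Carriers of each deletion, singles and doubles together, were also compared with non-carriers in 1 additive fit over all 44 arrays. It held a term for each deletion and the array number as a block. Each difference therefore holds the other deletions fixed. The 7 differences share the wild-type baseline and are not separate support. Over the 7 tests 2 of the 27 genes gave a call. PSMG1 fell in carriers of ED4559 by 0.24 ± 0.06 (SE; limma, adjusted p = 0.0259), where 1.97% of all genes fell, and Prosalpha6 fell in carriers of ED1770 by 0.24 ± 0.07 (SE; limma, adjusted p = 0.0437), where 1.48% of all genes fell. Both calls were lost without the wild-type arrays (adjusted p = 0.513 and 0.0943) and without the doubles ED4559 with ED1770 and ED4559 with ED1612 (adjusted p = 0.0597 and 0.155). Those 2 doubles had the lowest and the highest median over all genes among the doubles, at -0.22 and 0.05 relative to wild type. The count of 2 became 23 without the block and 21 when germline expression was a covariate, where 6.12% and 7.81% of all tests over the 7 deletions were called. In the other carriers, where no proteasome gene fell, the share of all genes that fell was 0.776% in ED3, 0.816% in ED1612, 2.05% in ED5071, 0.709% in ED7665 and 3.14% in ED10953. The median difference of the 27 genes was -0.17 in carriers of ED1770, -0.16 in ED5071, -0.12 in ED10953 and ED1612, -0.10 in ED4559, -0.09 in ED3 and -0.04 in ED7665. In ED1770 carriers 24 of the 27 had an unadjusted p under 0.05, all of them lower, against 9.97% of all genes lower at that p. In ED7665 carriers none had, against 2.97%.

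The paralogs of the proteasome genes stayed dim throughout. These are Prosalpha3T, Prosalpha4T1, Prosalpha4T2, Prosalpha6T, Prosbeta2R1, Prosbeta2R2, Prosbeta4R1, Prosbeta4R2, Prosbeta5R1, Prosbeta5R2, Rpn12R, Rpn13R, Rpt3R and Rpt4R, several of which are known from testis. None reached a log2 value of 6 in any of the 44 arrays, a level under which the mean of 37.1% of all genes lay. Prosalpha4T2 had the highest values, from 4.76 to 5.39 with a median of 5.02, and Prosalpha4T1 the lowest, from 3.08 to 3.74 with a median of 3.35. Their SD over all arrays lay between 0.12 and 0.19. The robust multi-array average compresses differences at such levels, so no difference between genotypes was computed for them.

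The same counts were made for genes that act beside the proteasome. Of 21 tested genes for regulators, receptors, deubiquitinases and segregase subunits that the symbol rule leaves out, 7 fell in doubles and none rose, where 2.86% of all genes fell, and 2 fell in singles, where 0.615% did, with median differences of -0.09 and -0.08. Uch, a ubiquitin hydrolase, averaged 10.47 ± 0.24 in doubles and 10.59 ± 0.21 in singles, against 11.04 ± 0.11 in wild type, and fell by 0.57 ± 0.10 in doubles and 0.46 ± 0.09 in singles (SE; limma, adjusted p = 0.00135 and 0.0169). The deubiquitinases that bind the proteasome, Uch-L5 and Usp14, fell in doubles by 0.47 ± 0.13 and 0.34 ± 0.11 (SE; limma, adjusted p = 0.0260 and 0.0475). Sem1, a small lid component, averaged 11.65 ± 0.27 in doubles and 11.83 ± 0.28 in singles, against 12.12 ± 0.08 in wild type, and fell by 0.47 ± 0.12 in doubles (SE; limma, adjusted p = 0.0192). Duba, a deubiquitinase, CG12321 and p47, a cofactor of the TER94 segregase, fell in doubles by 0.60 ± 0.18, 0.29 ± 0.08 and 0.29 ± 0.06 (SE; limma, adjusted p = 0.0393, 0.0242 and 0.00486), and p47 fell in singles by 0.25 ± 0.06 (SE; adjusted p = 0.0329).

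The transcription factor cnc averaged 11.55 ± 0.13 in doubles and 11.58 ± 0.09 in singles, against 11.49 ± 0.10 in wild type. Its differences were 0.05 ± 0.06 in doubles and 0.09 ± 0.05 in singles (SE; limma, adjusted p = 0.603 and 0.335), and those of its repressor Keap1 were 0.18 ± 0.08 and 0.22 ± 0.09 (SE; adjusted p = 0.174 and 0.153). Pomp, a chaperone of core assembly, averaged 10.47 ± 0.23 in doubles and 10.46 ± 0.14 in singles, against 10.36 ± 0.32 in wild type (limma, adjusted p = 0.535 and 0.506). Neither cnc nor Pomp lay below wild type in its means.

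Complexes that share an architecture or a step with the proteasome were counted too, against the same 2.86% of all genes that fell in doubles and 0.615% in singles. Of 12 genes for ubiquitin and its E1 and E2 enzymes none passed in doubles or singles; the largest differences were those of Ubc6, at -0.36 and -0.33, which lies inside the ED5071 interval, and ben, at 0.24 and 0.27. Of 8 genes of the COP9 signalosome, whose subunits resemble those of the lid, CSN1b fell in doubles by 0.21 ± 0.06 (SE; limma, adjusted p = 0.0260), with -0.15 ± 0.05 in singles (SE; adjusted p = 0.121), and median differences were -0.14 and -0.15. All 8 differences were below 0 in doubles and in singles, as were 55.4% and 51.4% of those of all genes. In each comparison 4 of the 8 were lower at an unadjusted p under 0.05, against 12.6% and 9.32% of all genes. Of 13 genes of eIF3, a translation initiation factor built on a similar scaffold, none passed in doubles, and eIF3f1, inside the ED5071 interval, fell in singles by 0.24 ± 0.06 (SE; limma, adjusted p = 0.0382), with medians of 0.05 and -0.02. Of the 8 genes of the CCT chaperonin none passed, with medians of -0.06 and -0.02. Their largest differences were those of CCT8, inside the ED1770 interval, at -0.32 and -0.17, and CCT3, at -0.19 and -0.11.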

How the data were processed

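RNA of whole females was measured on Affymetrix arrays, 1 per sample. The files hold log2 expression per probe set as deposited by the authors, made with RMA per the submitters' processing notes, a method that removes background, scales arrays to each other and combines probes. Its version was, like annotation and genome build, not given in the sources used here. From the range of the values, the log base was inferred. Of 18952 probe sets, 13647 had 1 gene symbol, 402 several and 4903 none; the one with the highest mean stood for a gene, and Release 6 gave names and gene order.

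Group means were fitted in limma 3.58.1 under R 4.3.3, with a trend, for genes whose mean was at least 6, and p-values were adjusted by Benjamini-Hochberg over all 7476 genes, with a threshold of 0.05. Tests of singles among themselves or against wild type used 25 arrays. The other comparisons used all 44, with the doubles as 1 group except for carriers. Deleted intervals were mapped as runs of lower neighbours in carriers, with an offset of 0.3, and their genes stayed in the tests. The p-values take arrays as independent flies. The labels call the replicates of singles and wild type biological. The doubles have no replicates: their 19 arrays are 19 genotypes, and each deletion recurs in several of them. The spread of the doubles as a group therefore includes differences between genotypes. Array number was a covariate only for carriers against non-carriers, an additive fit with a term for each deletion. The fits were tested on simulated data with independent noise for each gene and array. That simulation held no variation shared between genes or between genotypes. Its effects were larger than the proteasome differences in doubles and in singles, so it does not cover those differences. Tables and figures used Python 3.11.15 with numpy 2.4.6, pandas 2.3.3 and matplotlib 3.10.9.

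The proteasome genes and the other lists were chosen with earlier results of these data known. In each comparison the text names PSMG1, up to 12 genes that passed with the largest differences, the 3 largest differences that did not pass in either direction, the 5 largest F, all paralogs, and from each list up to 6 genes that passed or otherwise the 2 largest. Any other gene was named with its value already seen. Alternatives were the filter, the probe set rule, the trend, 2 scalings, the array number, a germline covariate, a replicate block and leaving out arrays. No 2 arrays held identical values.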

Additional observations from a re-analysis of the deposited data

How the results depend on the processing

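In doubles and in singles against wild type all 27 differences were below 0 under each alternative tried, while the counts of calls changed. For doubles against wild type, 20 calls, the count was 8 with arrays centred on their median, 4 with the array-number block and 0 with arrays numbered up to 26, and it ranged from 9 to 24 when 1 wild-type array was left out. For singles against wild type, 1 call, it was 2 with a minimum mean of 7, 4 with quantile normalization repeated, 12 with the germline covariate, 0 with the array-number block, 0 with arrays up to 26 and 5 without wild-type replicates 4 and 5, and 1 to 4 with 1 array left out. For each deletion against wild type, 1 call, it was 2 with quantile normalization, 5 with the germline covariate, 0 with the array-number block or arrays up to 26, and 0 to 3 with 1 array left out. For carriers, 2 calls, it was 1 with no filter, with median centring or with quantile normalization, 21 with the germline covariate, 23 without the array-number block, and 0 without the wild-type arrays or without the doubles ED4559 with ED1770 and ED4559 with ED1612. Doubles against singles and the F test gave 0 in all alternatives. The share of all genes called changed between these fits too, as given above for some of them. The counts alone therefore do not show a change in the proteasome genes. The cause of these changes was not tested.

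With the replicate number as a block the singles gave 23 calls, where 20.3% of all genes were called, and the deletions 38, for which the share of all genes is not given here. Wild-type replicates 4 to 6, whose numbers no deletion shares, add nothing in these fits. Deviations of same-numbered arrays had a median correlation over genes of 0.23, from -0.73 to 0.85, with 44 of 71 pairs over 0.1, against a median of -0.09 and 67 of 197 over 0.1 for other numbers. Same-numbered arrays were thus more alike on balance, but not every pair was, so the block is given as an alternative. The F test gave 0 with the replicate block. No counts lie behind array values, so the number of arrays limits the precision.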
